A study of Ambystoma mexicanum with 12 samples.

Results

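APCDD1 and LGR4 encode 2 modulators of WNT signalling at the cell surface, and their expression was followed across 12 arrays of regenerating axolotl (Ambystoma mexicanum) forelimb. Their probe sets were found by gene symbol in the platform's annotation. Each gene had 1 probe set (axo01743-f_at for APCDD1 and axo16967-f_at for LGR4), so they are 2 of 8639 named genes and 2 of the 20035 probe sets tested. Both genes were chosen by their measured difference between retinoic acid and vehicle on these same arrays, so that difference is given here as a description, with no test.

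The samples were blastemas, the mounds of proliferating cells that form on a limb stump and rebuild the missing part. Juvenile axolotls of 8.8 cm mean total length lost the forelimb at the distal zeugopod, the lower arm, and were dosed between days 7 and 14 after amputation. The treatments were retinoic acid (RA), the vitamin A derivative that binds RAR receptors, LE135, a compound known to block the beta form of RAR, and DMSO, the vehicle. Each had 4 samples, and each sample pooled single forelimbs of 4 animals, taken on day 14 with as little stump as could be managed. All animals were thus intact juveniles with an amputated limb, and no genotype or strain was named in the labels. By the series description RA-treated limbs go on to duplicate proximodistal parts, LE135-treated limbs end truncated and DMSO-treated limbs regenerate normally. The labels name no drug dose. A pooled blastema holds mesenchyme and wound epidermis together, so a pool's value averages over cell types and over animals.

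WNT ligands bind Frizzled receptors and the co-receptors LRP5 and LRP6, and in the canonical branch this spares beta-catenin from a cytoplasmic destruction complex so that it can act with TCF and LEF factors in the nucleus. APCDD1 is a membrane glycoprotein that, in work on human, mouse, chick and frog proteins, binds WNT and LRP5 and dampens the signal. LGR4 is a receptor for the R-spondins, secreted proteins that in mammalian cells raise WNT sensitivity by holding off the ligases ZNRF3 and RNF43, which would otherwise remove Frizzled from the membrane. WNT signalling is known to be needed for limb outgrowth and for regeneration of the amphibian limb.

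By group means APCDD1 was highest in the RA blastemas, intermediate in LE135 and lowest in DMSO, and LGR4 ran in the opposite order. The values of APCDD1 on the log2 scale were 9.93, 9.82, 9.76 and 9.95 in RA samples 1 to 4. In LE135 samples 1 to 4 they were 9.31, 9.31, 8.80 and 8.91, and in DMSO samples 1 to 4 they were 8.81, 9.15, 8.87 and 8.11. All 4 RA samples thus stood above every LE135 and every DMSO sample, while the LE135 and DMSO ranges overlapped. The gap between the lowest RA sample and the highest DMSO sample was 0.61. The spread was uneven, since APCDD1 averaged 9.87 ± 0.09 in RA, 9.09 ± 0.27 in LE135 and 8.73 ± 0.44 in DMSO (SD, n = 4 each). DMSO 4, at 8.11, was the lowest of the 12 samples.

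**Figure D1:**
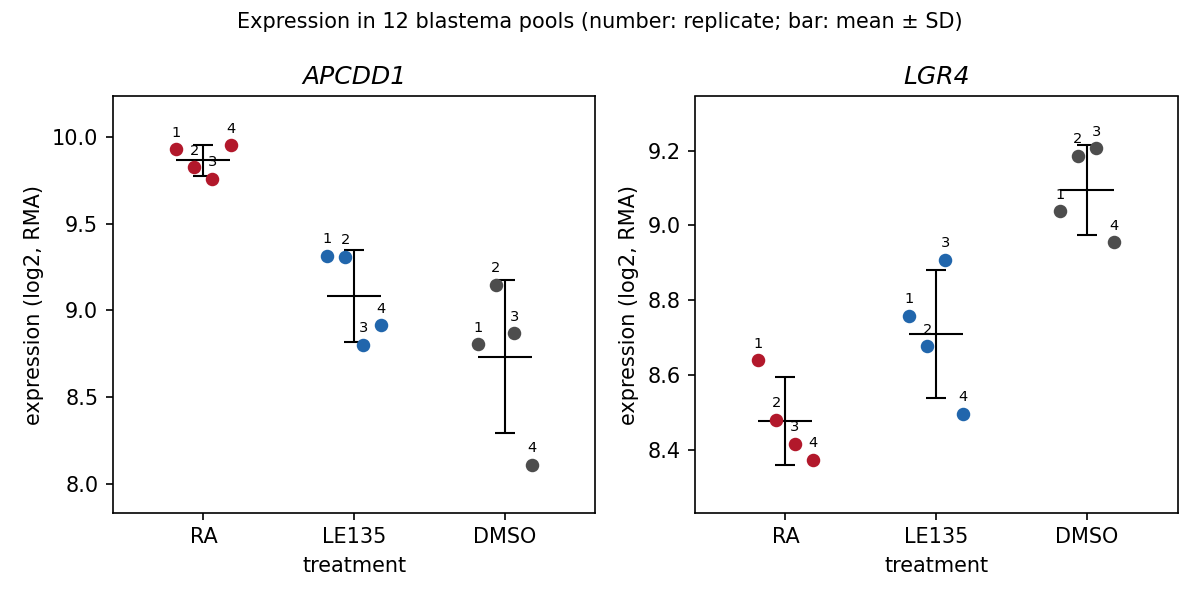
Log2 expression (RMA) of APCDD1 and LGR4 in each blastema pool, by treatment, with points numbered by replicate and black bars for mean ± SD (n = 4). The RA points for APCDD1, from 9.76 to 9.95, lie above all others, and the RA points for LGR4, from 8.37 to 8.64, lie below all DMSO points.

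LGR4 stood at 8.64, 8.48, 8.42 and 8.37 in RA samples 1 to 4. It stood at 8.76, 8.68, 8.91 and 8.50 in LE135 samples 1 to 4, and at 9.04, 9.19, 9.21 and 8.96 in DMSO samples 1 to 4. Every RA and every LE135 sample was below every DMSO sample, but the highest LE135 sample came within 0.05 of the lowest DMSO sample, and RA and LE135 overlapped. The means were 8.48 ± 0.12 in RA, 8.71 ± 0.17 in LE135 and 9.10 ± 0.12 in DMSO (SD, n = 4 each).

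Between RA and DMSO, the contrast that led to the choice of these genes, APCDD1 was higher in RA by a log2 difference of 1.13 (SE 0.20), a ratio of 2.19, and LGR4 differed by -0.62 (SE 0.10), a ratio of 0.651. Among all 20035 probe sets 1.62% were called higher and 1.01% lower in RA than in DMSO, and the 2 groups did not overlap in 11.3%. A call here is an adjusted p under 0.05 in limma's moderated contrast, with Benjamini-Hochberg adjustment over all probe sets. Since that contrast chose both genes, nothing is read from these shares. Without DMSO 4, whose array correlated least with its own group (mean r of 0.978 with the other 3), the APCDD1 difference was 0.93 and the LGR4 difference -0.67.

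LE135 against DMSO was not the contrast that chose the genes, but it shares the DMSO samples with it. A choice that favours low APCDD1 and high LGR4 values in DMSO also moves these differences the same way. The p-values and overlaps are therefore given as a description. APCDD1 differed by 0.35 (SE 0.20, limma adjusted p = 0.485), with a 95% interval of the difference from -0.08 to 0.78, which holds both no difference and a 1.5-fold rise. It was 0.14 without DMSO 4 and 0.20 without DMSO 4 and LE135 4. LGR4 differed by -0.39 (SE 0.10, 95% interval -0.60 to -0.17). This missed the threshold after adjustment over all probe sets (limma adjusted p = 0.0701). The 4 LE135 samples lay below all 4 DMSO samples, and 7.53% of all probe sets showed such a separation in either direction. The LGR4 difference passed when DMSO 4 was left out (log2 difference -0.43, adjusted p = 0.041) and when DMSO 4 and LE135 4 were both left out (-0.36, adjusted p = 0.046). In 19 of 22 alternative settings LGR4 stayed uncalled. Its limma adjusted p reached 0.17 over omissions of 1 sample, and 0.188 when only the LE135 and DMSO samples were fitted. Of all probe sets, 2.09% were called between LE135 and DMSO.

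RA against LE135 shares the RA samples with the contrast that chose the genes, so its p-values and overlaps are likewise a description. APCDD1 was 0.78 higher in RA than in LE135 (SE 0.20, 95% interval 0.35 to 1.21) and the groups did not overlap, as in 6.93% of all probe sets. The difference did not pass after adjustment (limma adjusted p = 0.283), in a comparison where 0.02% of probe sets were called. LGR4 differed by -0.23 between RA and LE135 (SE 0.10, 95% interval -0.45 to -0.02, limma adjusted p = 0.599). The order RA, LE135, DMSO is therefore a description of the means. In the fit of all 12 samples LE135 passed the test against neither RA nor DMSO for either gene. The ranges of LE135 and DMSO also overlapped for APCDD1, as did those of RA and LE135 for LGR4. Across the 12 samples the 2 genes correlated at a Pearson r of -0.67. Once each treatment's mean was removed the r was 0.34. RA 4 was the highest RA sample for APCDD1 and the lowest for LGR4, and LE135 3 was the lowest LE135 sample for APCDD1 and the highest for LGR4. DMSO 1 and LE135 2 lay above their treatment's mean for APCDD1 and below it for LGR4. RA 2 lay below it for APCDD1 (-0.04) and almost at it for LGR4 (0.003). The rest went together: DMSO 2, DMSO 3, RA 1 and LE135 1 lay above their treatment's mean for both genes. DMSO 4, RA 3 and LE135 4 lay below it for both.

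Some marker genes of the blastema's compartments differed between the treatments too. The mean of 13 measured connective tissue fibroblast markers of 15 listed ran from 10.45 to 10.76 in RA, from 10.29 to 10.54 in LE135 and from 10.04 to 10.41 in DMSO. RA and DMSO thus did not overlap, but by a narrow margin. The mean was not computed without FAP, the gene of largest RA difference in the list. Of the 13, FAP and DCN rose in RA against DMSO and none fell, with a list median of 0.42, where 1.53% of named genes were called higher. In LE135 FAP rose by 1.39 (limma adjusted p = 0.00194), and the list median was 0.13. The APCDD1 difference of 1.13 was exceeded in this list by FAP alone, at 1.60. The mean of 16 measured epidermis markers of 21 listed ran from 10.10 to 10.16 in RA, from 9.75 to 10.16 in LE135 and from 10.25 to 10.50 in DMSO. Both drugs thus lay below DMSO, but by a narrow margin. This mean was not computed without TGM1, the gene of largest difference in the list in both drugs. Of the 16, ST14 fell in RA, while TP63, JUP, TGM1 and ST14 fell in LE135, with list medians of -0.15 in RA and -0.28 in LE135. Among named genes 1.22% were called lower in RA and 1.57% in LE135. The LGR4 difference of -0.62 in RA was exceeded in this list by TGM1 alone, at -1.44 (adjusted p = 0.058). Within treatments (n = 12 samples, treatment means removed) r with the fibroblast mean was 0.58 for APCDD1, and r with the epidermis mean was 0.35 for LGR4. Over all 8 marker lists these r ran from -0.66 (cartilage and bone) to 0.64 (Schwann cell and nerve) for APCDD1, and from -0.73 (erythrocyte) to 0.63 (Schwann cell and nerve) for LGR4. The part of these shifts in the values of APCDD1 and LGR4 was not tested. In pooled tissue, fewer cells of a type and less RNA per cell cannot be told apart.

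**Figure D2:**
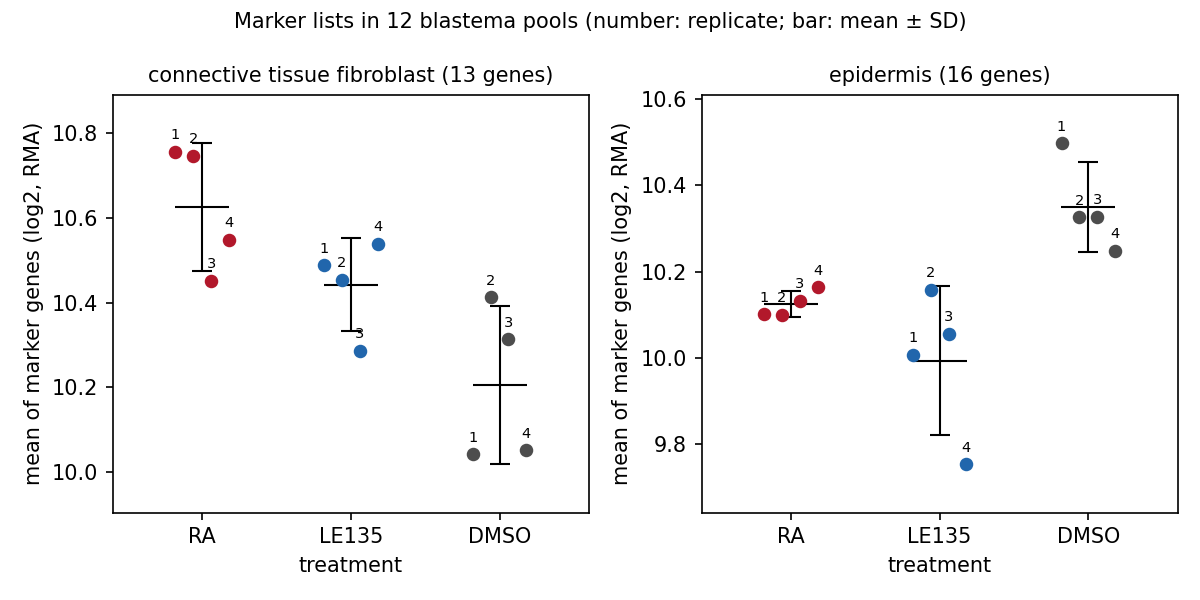
Mean log2 expression (RMA) of the 13 fibroblast and 16 epidermis marker genes in each pool, by treatment, with points numbered by replicate and bars for mean ± SD (n = 4). Fibroblast markers in RA begin at 10.45, above the highest DMSO pool at 10.41, and epidermis markers in both drugs end at 10.16, below the lowest DMSO pool at 10.25.

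Other compartments were present at varying levels. The 9 measured skeletal muscle markers averaged between 7.33 and 9.77 in RA, 8.14 and 9.24 in LE135, and 6.77 and 9.05 in DMSO, with the lowest value in DMSO 4. The median difference of the 9 was 0.72 in RA and 0.63 in LE135, more than that of the fibroblast list, and DES, a muscle filament gene, rose in RA by 0.92 (limma adjusted p = 0.0353). The 10 macrophage and neutrophil markers stayed between 7.92 and 8.39, the 7 endothelium markers between 5.75 and 6.30, the 4 Schwann cell and nerve markers between 6.30 and 7.35, the 8 cartilage and bone markers between 7.71 and 8.68, and the 2 erythrocyte markers between 5.15 and 7.12. THY1, MYOG, MATN1, SLC4A1, TIE1 and ERBB3 had means at or below 4.57, among the dimmest probe sets of the arrays, where a signal can hardly be told from background. Single members of these lists passed the test. ACAN, a cartilage proteoglycan gene, rose by 2.66 in RA (limma adjusted p = 0.000799) and by 2.61 in LE135 (0.000776), MATN4, a matrilin gene, fell in RA (-2.86, adjusted p = 0.0045), and SP7, a bone cell factor, rose in LE135 by 0.73 (adjusted p = 0.00708). Of the 10 macrophage and neutrophil genes CYBA and MMP9 rose and SPI1 fell in LE135, where the list median was 0.12. Among named genes 0.868% were called higher and 1.57% lower in LE135, and 1.53% higher and 1.22% lower in RA. Array medians lay between 6.61 and 6.70.

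Most measured genes of the wider WNT pathway did not pass the test in either drug. A list of 116 pathway genes was written from general knowledge, and 64 of them had a probe set. Of the 64, APCDD1 and GSK3B were called higher and SOSTDC1 and LGR4 lower in RA than in DMSO, 4 in all, or 6.25%, against 2.74% of the 8639 named genes. As 2 of the 4 were known beforehand, nothing is read from that share. At an unadjusted p under 0.05 there were 13 of 64, against 16.1% of named genes. The RA and DMSO ranges lay fully apart for 10 of 64 (15.6%), against 11.3% of all probe sets. Both counts include APCDD1 and LGR4, which this contrast chose, so nothing is read from them either. The median log2 difference over the 64 was 0.05, against -0.02 over all named genes, and the median absolute difference 0.12 against 0.09. In LE135 against DMSO, TLE3 was the 1 gene called of 64, or 1.56% against 2.44% of named genes, and LGR4 was not. In RA against LE135 limma called 0 of 64, where 0.0463% of named genes were called. At an unadjusted p under 0.05 there were 10 of 64, against 7.81% of named genes. The 10 include APCDD1 and LGR4, and this contrast shares the RA samples that chose them, so nothing is read from that count.

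APCDD1 was listed with the extracellular inhibitors. Of 11 measured, 9 had a positive and 2 a negative difference in RA against DMSO, with a median of 0.44. Over all 64 WNT genes 40 were positive, and the median over all named genes was -0.02. The 9 include APCDD1, which this contrast chose, and DKK3, whose second probe set differed by 0.06. Nothing is therefore read from the count. Of the 11, APCDD1 and SOSTDC1 passed, or 18.2% against 2.74% of named genes. APCDD1 had been chosen by this contrast, so nothing is read from that share either. SOSTDC1, a secreted antagonist of WNT and BMP signals in mouse, stood at 6.95, 6.61, 6.85 and 7.08 in RA samples 1 to 4. It stood at 7.69, 7.59, 7.66 and 7.76 in LE135 samples 1 to 4 and at 7.73, 8.31, 7.92 and 7.97 in DMSO samples 1 to 4. The RA values lay below all others, and LE135 overlapped DMSO by a single sample. SOSTDC1 fell in RA by 1.11 on the log2 scale (SE 0.12, limma adjusted p = 0.00132) and kept that call in each of 22 alternative settings. Its difference in LE135 was -0.31 (SE 0.12, limma adjusted p = 0.298), or -0.20 without DMSO 2. Its RA minus LE135 difference of -0.80 (SE 0.12) missed the threshold (adjusted p = 0.0825). It passed without DMSO 2 (adjusted p = 0.0432) and with array weights (-0.76, adjusted p = 0.0164).

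KREMEN1, a membrane partner of the DKK inhibitors, averaged 8.04 ± 0.08 in RA, 8.03 ± 0.24 in LE135 and 7.43 ± 0.32 in DMSO (SD, n = 4 each). Its differences of 0.61 in RA and 0.59 in LE135 (SE 0.15 each) missed the threshold (limma adjusted p = 0.0661 and 0.0818). Leaving out DMSO 2 brought both below it (adjusted p = 0.0224 in RA and 0.0309 in LE135), as leaving out LE135 4 did for RA (adjusted p = 0.041). Both also passed with array weights (adjusted p = 0.0202 in RA and 0.0398 in LE135). Without DMSO 4 and LE135 4 KREMEN1 passed in RA (0.48, adjusted p = 0.0277), while its LE135 difference shrank to 0.36. It stayed uncalled in 18 of 22 alternative settings in RA and in 20 of 22 in LE135, with adjusted p up to 0.176 and 0.252. APCDD1L, a relative of APCDD1, averaged 5.98 in RA, 5.67 in LE135 and 5.54 in DMSO. It differed by 0.44 in RA (limma adjusted p = 0.273) and by 0.12 in LE135 (limma adjusted p = 0.856), so a change like that of APCDD1 was not shown for it. The secreted Frizzled-related proteins SFRP1, SFRP2 and SFRP4 differed by 0.71, 0.51 and 0.32 in RA and WIF1, a secreted WNT-binding inhibitor, by -0.49, none of which passed. A second bright probe set of SFRP2 differed by 0.02.

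**Figure D3:**
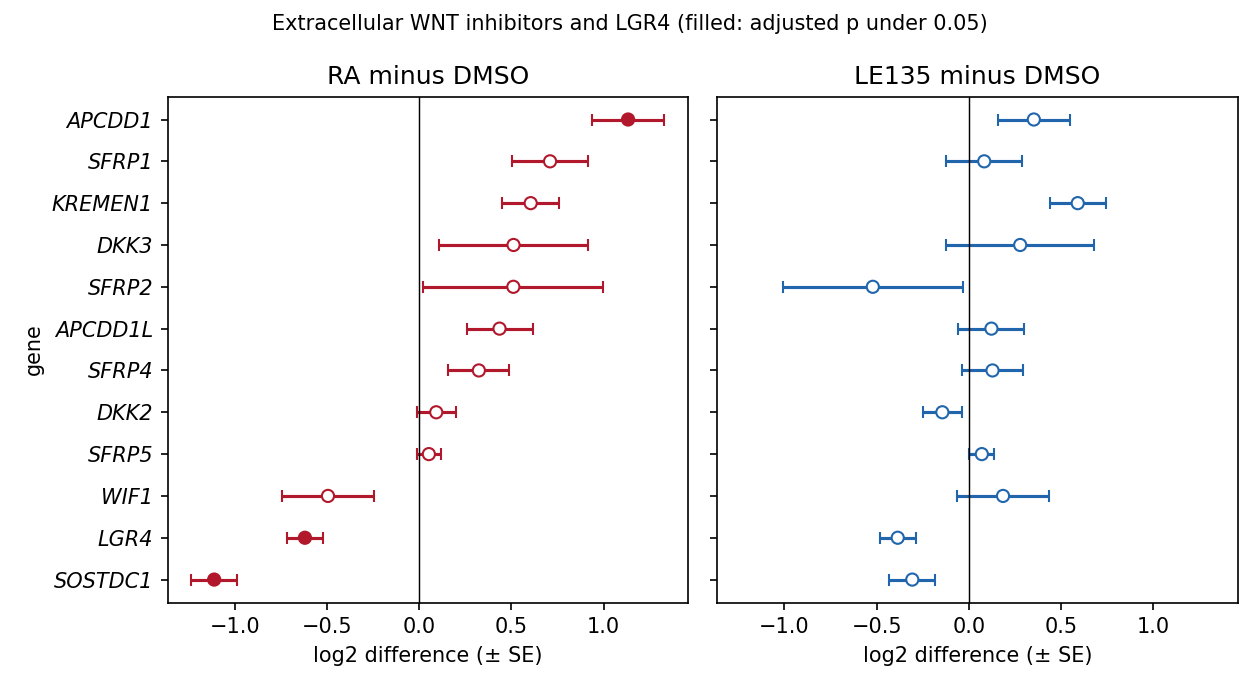
Log2 differences (± SE of the moderated contrast) of the 11 measured extracellular WNT inhibitors and of LGR4, for RA minus DMSO on the left and LE135 minus DMSO on the right, with filled points for an adjusted p under 0.05. APCDD1 at 1.13 and SOSTDC1 at -1.11 mark the ends of the RA panel, where the filled points of APCDD1 and LGR4 are those that chose them, and no gene of the LE135 panel is filled.

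LGR4 was the sole measured gene of 9 listed for the R-spondin axis, so its ligands, its relatives LGR5 and LGR6 and the ligases ZNRF3 and RNF43 were not analysed here. Of 19 WNT ligands 4 had a probe set (WNT2B, WNT7B, WNT8A and WNT11), each with a mean at or below 4.57, so that a change in them could not be judged. Of 11 measured receptors none passed in any comparison. ROR1, a receptor of the non-canonical branch, averaged 5.59 ± 0.29 in RA, 5.45 ± 0.17 in LE135 and 5.14 ± 0.14 in DMSO (SD, n = 4 each), a difference of 0.45 in RA that did not pass (limma adjusted p = 0.13). Its relative ROR2 differed by 0.33 in RA (adjusted p = 0.258), and FZD8 by -0.27 in RA and 0.25 in LE135 (adjusted p = 0.568 and 0.641). PORCN, the acyltransferase that lipidates WNT ligands, differed by 0.01 in RA and 0.10 in LE135, and neither passed.

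Over the 14 measured genes of the destruction complex and cytoplasm the median absolute log2 difference was 0.08 in RA and 0.10 in LE135. A second probe set of APC differed by 0.53 in RA (limma adjusted p = 0.117), against -0.11 for the brighter one. GSK3B, a kinase of the destruction complex, rose in RA by 0.24 (SE 0.05, limma adjusted p = 0.0419), with values from 6.52 to 6.62 in RA against 6.26 to 6.43 in DMSO. Its second probe set differed by 0.03 (adjusted p = 0.94), and the call ended in 10 of the 12 omissions of 1 sample, with adjusted p up to 0.118, lasting without DMSO 2 or LE135 4. It also ended with the trended robust prior (adjusted p = 0.158), the replicate block (0.0838), the compared groups alone (0.102), median centring (0.0856) and renewed quantile normalization (0.0599). CTNNB1, which encodes beta-catenin, differed by 0.03 in RA and -0.01 in LE135. DACT2, a regulator of Dishevelled, and TNKS2, a tankyrase that marks axin for degradation, did not pass. Of 9 planar polarity genes none passed and 6 were at or below that level. PRICKLE1 differed by 0.27 in RA (limma adjusted p = 0.436), and VANGL2 and CELSR2 were among the dim ones.

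Of 9 nuclear factors TLE3, a Groucho-type corepressor that binds TCF factors, rose in LE135 by 0.34 (SE 0.07, limma adjusted p = 0.0429), with values from 8.81 to 8.95 in LE135 against 8.41 to 8.73 in DMSO. That call ended in 11 of the 12 omissions of 1 sample (adjusted p up to 0.122), lasting without DMSO 2. It also ended with the trended robust prior, the replicate block, the compared groups alone (adjusted p = 0.156), median centring, the unmoderated test and omission of both DMSO 4 and LE135 4. In RA TLE3 differed by 0.27 (adjusted p = 0.0898). LEF1, which is both a partner of beta-catenin and a target of it, differed by 0.66 in RA, where 5.70 to 6.17 stood against 4.83 to 5.65 in DMSO without overlap, but it did not pass (limma adjusted p = 0.196), and its second probe set differed by -0.11. PYGO2 differed by -0.10 in RA and -0.13 in LE135 (adjusted p = 0.304 and 0.226). Of the 4 measured target genes, NKD1, MYC and CD44 differed by 0.20, 0.12 and 0.27 in RA and CCND1 by 0.06, and none passed. CD44 was among the dim probe sets, and its value of 5.38 in RA 2 stood above 4.46 to 4.62 in the other RA samples. AXIN2, the target most often used as a readout of canonical signalling, was not analysed here.

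The genes whose profiles were most like that of APCDD1 were picked by their correlation with it over these same 12 samples. Ranked by Pearson r among 8638 other named genes, the first 5 were TSHZ2, a zinc finger transcription factor (r = 0.98), PAMR1, a secreted protease-like protein (0.98), TGFB1, a growth factor (0.97), NFIL3, a leucine zipper transcription factor (0.96), and LPIN2, a phosphatidate phosphatase (0.96). These values describe 12 samples in 3 treatment groups, and no test was made of them. With each treatment's mean removed the r of the 5 lay between 0.84 and 0.95. Ranking by r over the same samples favours a high r within treatments too, so nothing is read from that range. DMSO 4 was the lowest DMSO sample of all 5, as it was of APCDD1, and without it r over the other 11 samples was 0.93 to 0.97. That r still holds the treatment means, and the r with means removed was not computed without DMSO 4. Within RA, TSHZ2, PAMR1 and TGFB1 were lowest in RA 3, as APCDD1 was (9.76). LPIN2 was highest there (6.77), and NFIL3 was lowest in RA 2. PAMR1, for example, stood at 9.87, 9.77, 9.42 and 9.76 in RA samples 1 to 4, at 9.01, 9.19, 8.72 and 8.70 in LE135 samples 1 to 4, and at 8.27, 8.78, 8.48 and 7.42 in DMSO samples 1 to 4. As for APCDD1, all RA samples were above the rest and DMSO 4 was the lowest of the 12. The mean of each of the 5 in LE135 lay between those of RA and DMSO, as for APCDD1. Ranking by r favours genes that share this order and a low DMSO 4, so nothing is read from either. The 3 genes running most against APCDD1 were DEAF1, a transcription factor (r = -0.93), P2RY4, a nucleotide receptor (-0.92), and OGG1, a DNA repair glycosylase (-0.92).

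**Figure D4:**
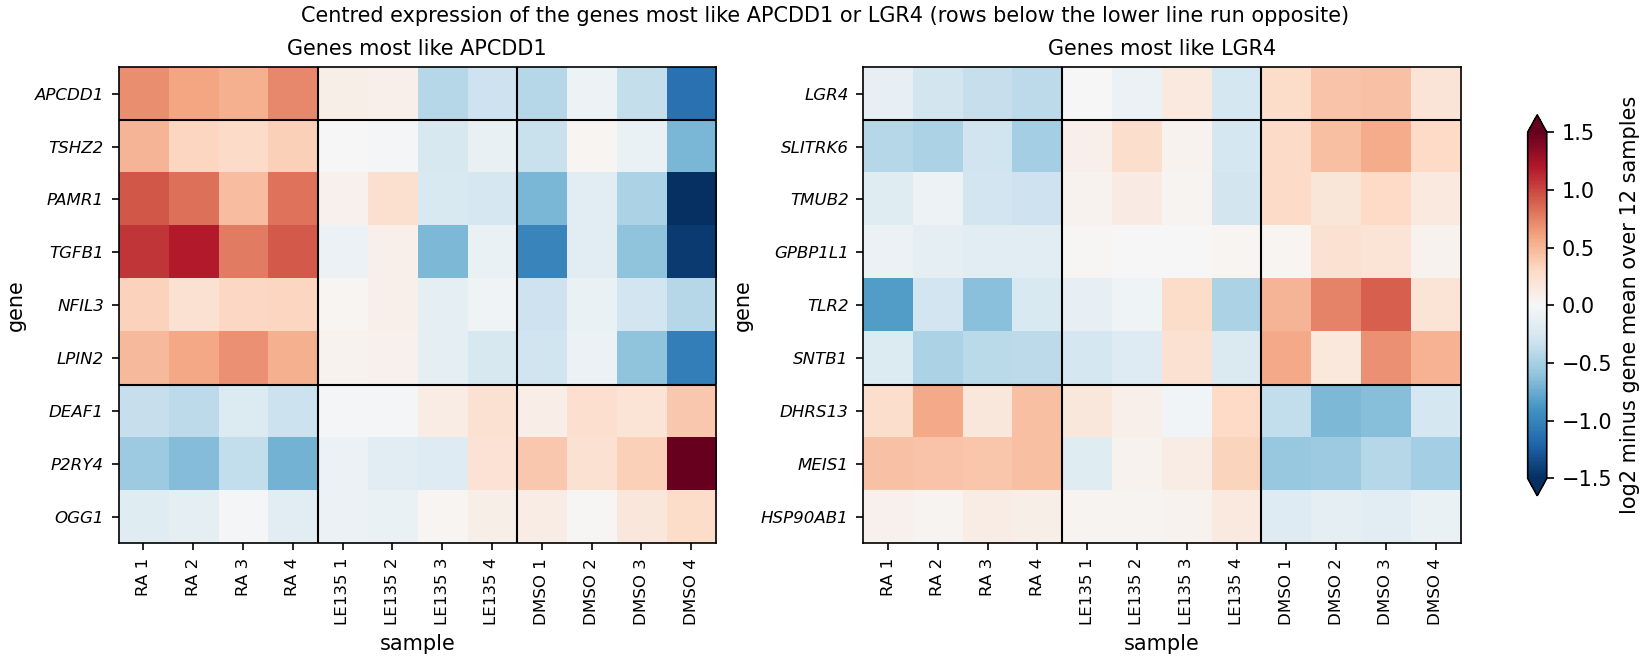
Log2 expression minus each gene's mean over the 12 samples (colour) in every pool (columns, by treatment) for APCDD1, LGR4 and, under each, the 5 genes of highest and the 3 of lowest Pearson r with it. For APCDD1 and the 5 genes like it the RA columns are red and DMSO 4 is the bluest column, while for LGR4 the DMSO columns are red and those of RA blue.

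The genes whose profiles were most like that of LGR4 were picked by the same ranking. They were SLITRK6, a transmembrane protein of the nervous system (r = 0.91), TMUB2, a ubiquitin-like membrane protein (0.91), GPBP1L1 (0.90), TLR2, a receptor of innate immunity (0.89), and SNTB1, a syntrophin of the dystrophin complex (0.89). With the treatment means removed their r lay between 0.40 and 0.62. Nothing is read from that range, or from its distance to the range for APCDD1, since the ranking used the same samples. The 3 running most against LGR4 were DHRS13, a dehydrogenase (r = -0.94), MEIS1, a homeobox factor of the proximal limb (-0.91), and HSP90AB1, a chaperone (-0.89). MEIS1 averaged 8.04 in RA, 7.69 in LE135 and 7.10 in DMSO, and its r with LGR4 within treatments was -0.32. All 3 were called higher in both drugs than in DMSO, where 1.53% of named genes were called higher in RA and 0.868% in LE135. Ranking by r with LGR4, itself chosen by its RA difference, favours such genes, so nothing is read from these calls. LGR4 missed the threshold in LE135, and no test of the difference between genes was made. In RA against DMSO other probe sets of the same genes differed by 0.09 for TLR2, 0.27 for DHRS13, 0.02 and 0.06 for HSP90AB1, and -0.37 and -0.56 for SLITRK6, of which the last passed (limma adjusted p = 0.021).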

How the data were processed

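The deposited values were log2 expression values of 20080 probe sets on 12 Affymetrix arrays, 1 per sample, which the authors made with RMA per the submitters' processing notes. RMA corrects background, equalises the arrays' distributions and summarises probes, which can compress fold changes. No source used here gives its version. The 45 control probe sets were left out. No detection calls were used. Of the 20035 probe sets tested 10951 had 1 gene symbol, none several and 9084 none. The 8639 symbols were all found in the RefSeq table of assembly UKY_AmexF1_1, used for names and gene order only. The probe set of highest mean stood for a gene with several. No 2 arrays were identical (pairwise r 0.973 to 0.998). The number of arrays, 4 per treatment, limits the precision.

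A single model with a mean per treatment was fitted to all 12 samples in limma 3.58.1 (R 4.3.3), with Benjamini-Hochberg adjustment over all probe sets at 0.05. SEs and intervals are those of the moderated contrasts. The scripts were tested on simulated data. The genes, lists and tests were chosen with earlier results of these data known. Named pathway genes were, per role, the 3 of smallest F test p and all called. Similar genes were the 5 of highest and 3 of lowest Pearson r. APCDD1L, SFRP1, SFRP2, SFRP4, WIF1, APC, CTNNB1, CCND1 and WNT2B were named after their values were seen. Alternatives tried were a trended robust prior, a replicate block, the compared groups alone, a filter on dim probe sets, 2 further normalizations, array weights, ordinary ANOVA, control probe sets kept, another choice of probe set, and omission of samples. Labels name no batches.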

Additional observations from a re-analysis of the deposited data

Results flagged for a closer look

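The 39 genes checked were APCDD1, LGR4, the pathway genes picked by role or call, and the genes ranked as similar. Other genes named above, the markers among them, were not checked. In each of the 3 treatments a sample far from the other 3 was looked for. Of 117 sets 5 (4.27%) had such a sample, where chance gives about 1 in 20. None was in APCDD1 or LGR4. LEF1 stood at 4.79 in LE135 3, against 5.68 to 5.80 in the other LE135 samples. SNTB1 stood at 8.25 in LE135 3, against 7.83 at most in the others. WNT11, a dim probe set, stood at 4.04 in LE135 3, and the nearest sample was at 3.97. HSP90AB1 stood at 13.89 in LE135 4, and the nearest was at 13.79. P2RY4, which ran against APCDD1, stood at 9.63 in DMSO 4, the sample lowest in APCDD1, and the nearest was at 8.51.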

How the results depend on the processing

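Over the 22 alternatives the RA minus DMSO differences of APCDD1 and LGR4, which chose them and are given with no test, ran from 0.93 to 1.27 and from -0.68 to -0.58. LE135 minus DMSO was not passed by APCDD1 in any of the 22. For LGR4 it passed with array weights (-0.40, adjusted p = 0.0138), without DMSO 4 (-0.43) and without DMSO 4 and LE135 4 (-0.36), but not in the other 19. It ran from -0.45 to -0.32 over omissions. RA minus LE135 for APCDD1 passed with array weights (0.67, adjusted p = 0.029). Counts of probe sets called were 528 (RA minus DMSO), 418 (LE135 minus DMSO), 4 (RA minus LE135) and 537 (any difference). In that order they were 1362, 1265, 186 and 1639 with array weights, and 1530, 1027, 43 and 1478 without DMSO 4 and LE135 4. The 2 compared groups alone gave 340, 111 and 10, and ordinary ANOVA gave 343 for RA minus DMSO, 2 for RA minus LE135 and 310 for any difference. Over omissions of 1 sample they ran from 231 (without RA 1) to 671, from 220 (without LE135 1) to 742 (without DMSO 4), from 1 to 13 (without DMSO 4), and from 261 (without RA 1) to 700. WNT genes called were 7, 4 and 2 in the 3 contrasts with array weights, and 7 and 2 in RA and LE135 minus DMSO without DMSO 4 and LE135 4. The 1 LE135 call of TLE3 became 0 with a trended robust prior, the replicate block, the compared groups alone and median centring, and 0 to 2 calls were made over omissions. With ordinary ANOVA the 1 LE135 call was PYGO2, and without DMSO 4 it was LGR4. Omissions gave 3 to 6 WNT calls for RA minus DMSO and 0 to 1 for RA minus LE135. Smaller counts over omissions come with fewer samples, and the cause of the other shifts was not tested. The sample numbers 1 to 4 were not treated as pairs: deviations of same-numbered samples correlated between -0.18 and 0.61, 7 of 12 pairs over 0.1, and 4 of 12 samples correlated best with their own number. The replicate block gave 11 calls for RA minus LE135, and LGR4 in LE135 minus DMSO stood at adjusted p = 0.0508.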

Other observations

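In the RefSeq gene order of the axolotl, the nearest named protein-coding neighbours of APCDD1 are NAPG and VAPA, and LIN7C adjoins LGR4. None of these 3 passed the test between RA and DMSO (limma log2 differences of -0.17 for NAPG, 0.00 for VAPA and -0.20 for LIN7C, adjusted p = 0.589, 0.99 and 0.777). These neighbours were looked up after the values of APCDD1 and LGR4 were known.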
